A study of Mus musculus with 24 samples.

Results

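The genotype by recovery interaction described here is the gap between the way brown fat lacking Hdac3 and Control brown fat changed 24 h after a short cold exposure. It was measured by RNA sequencing in interscapular brown adipose tissue, the thermogenic depot of the upper back, from male C57BL/6 mice aged 10 to 12 weeks that were sampled at ZT10, near the end of the light phase. The 4 groups held 16 of the 24 libraries, 4 each, and all mice were housed at 22 °C outside the cold exposure. KO recovery mice carried HDAC3 floxed alleles and Ucp1-cre, spent 24 h at 15 °C and were returned to 22 °C for 24 h. KO 22 °C mice had the same genotype and stayed at 22 °C. Control recovery mice carried HDAC3 floxed alleles without a named Cre and went through the same cold and recovery. Control 22 °C mice were of that genotype and stayed at 22 °C. Ucp1-cre is a Cre recombinase under the promoter of Ucp1, so the deletion is limited to cells that use this promoter, and the pad also holds vessel, immune, nerve and stromal cells that do not. The 2 further groups, taken after 7 d of recovery, were not used.

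Genes were the items described, and 11669 qualified: they were listed in the authors' comparisons of KO with Control both at 24 h and at 22 °C (12295 of the 13072 genes listed in any of the 4 tables used) and had a mean of at least 1 RPKM (a read count corrected for the size of the gene and of the library) in at least 1 group. For each gene the difference of differences was (KO recovery minus KO 22 °C) minus (Control recovery minus Control 22 °C), on log2 of the authors' group means plus 0.1 RPKM, centred on its median over genes, a scale that understates changes of weakly expressed genes. A positive value means that the recovery change was more upward in KO than in Control, and equally that the KO to Control ratio was higher at 24 h than at 22 °C. Genes just inside the filter were Tmigd1, E130317F20Rik and Ttyh3, each with a highest mean of 1.00 RPKM, and just outside it were Piga (0.999), 4833418N02Rik (0.998) and Atp10a (0.997).

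Hdac3 is a histone deacetylase that acts within the NCoR and SMRT corepressor complexes, and in brown adipocytes it is also known to prime the enhancers of Ucp1 and of oxidative phosphorylation genes together with the estrogen-related receptor ERRα. Brown adipocytes make heat when noradrenaline, acting through β-adrenergic receptors and cAMP, releases fatty acids that fuel a large mitochondrial respiratory chain uncoupled by UCP1. Cold and rewarming also switch on de novo lipogenesis in this tissue, driven by the transcription factors SREBP1c and ChREBP.

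Library totals, recovered from the smallest increments of the authors' means of weakly expressed genes, ran from 5349638 to 11977140 reads (n = 16). The listed genes took 75.1% of the reads in KO recovery, 65.5% in KO 22 °C, 72.8% in Control recovery and 66.2% in Control 22 °C. Since no single library has values in the tables the authors deposited, the group means below carry no SD, and the replicate error enters only through the authors' p-values. Whether libraries came from separate mice is not stated in the labels, and these p-values measure the spread between libraries. Hdac3 averaged 6.43 RPKM in KO recovery and 8.57 RPKM in KO 22 °C, against 27.1 RPKM in Control recovery and 26.1 RPKM in Control 22 °C. Both KO means were below both Control means, and the interaction of Hdac3 itself was -0.55 ± 0.20 (SE, log2; Wald adjusted p = 0.0356). The summed mean RPKM of 17 brown adipocyte markers was 29504 in KO recovery, 19797 in KO 22 °C, 20664 in Control recovery and 15668 in Control 22 °C, and the defining brown fat genes Ucp1 and Cidea were present in each. Plin1, Fabp4, Adipoq and Pparg, genes of adipocytes in general, make up most of these sums. The median log2 fold change of the 17 markers in KO over Control was -0.46 at 22 °C and 0.02 at 24 h. At 22 °C the authors' deposited table called 7 of them lower and 5 higher in KO. In a whole pad, fewer cells of a type and less RNA per cell cannot be told apart.

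The interaction was tested for 10260 of the 11669 genes with a Wald test on the difference of the authors' log2 fold changes, with an error rebuilt from their p-values and Benjamini-Hochberg adjustment over all genes tested. For the other 1409 genes a p above 0.9 in 1 of the tables left no error. At an adjusted p under 0.05, 1959 genes (19.1%) were called, 1204 higher (11.7%) and 755 lower (7.36%). In size alone, 646 genes (5.54%) had a difference of differences of 1 or more and 736 (6.31%) of -1 or less. The called higher genes were the more abundant ones, with a median log2 CPM of 5.91, against 5.00 for the genes called lower and 4.64 over all genes. Their median length was 2478.5 bases, against 3300 bases for the genes called lower and 2761 over all.

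Most called genes had changed with recovery in KO and not in Control. At the authors' adjusted p under 0.05 in their deposited tables, 41.9% of listed genes changed with recovery in KO (22.1% higher, 19.8% lower) and 21.8% in Control (13.1% higher, 8.67% lower). Between KO and Control, 18.5% of listed genes differed at 24 h (10.5% higher, 7.96% lower in KO) and 34.3% at 22 °C (16.3% higher, 18% lower). Of the 1204 genes called higher, 709 changed with recovery in KO alone, 80 in Control alone, 322 in both in the same direction, 62 in both in opposite directions and 31 in neither. Of the 755 called lower, 493 changed in KO alone, 126 in Control alone, 68 in both in the same direction, 37 in opposite directions and 31 in neither. Among the genes called higher, 958 were lower in KO at 22 °C, and by 24 h 722 of these no longer passed the authors' threshold, 126 were still lower in KO and 110 had become higher in KO. Among those called lower, 586 were higher in KO at 22 °C, and at 24 h 442 of these no longer passed, 111 were still higher and 33 were lower. These counts use the same libraries as the interaction and describe it. The KO 22 °C group enters the recovery change of KO and the KO to Control ratio at 22 °C alike, and without library values the agreement of its 4 libraries could not be checked.

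**Figure D1:**
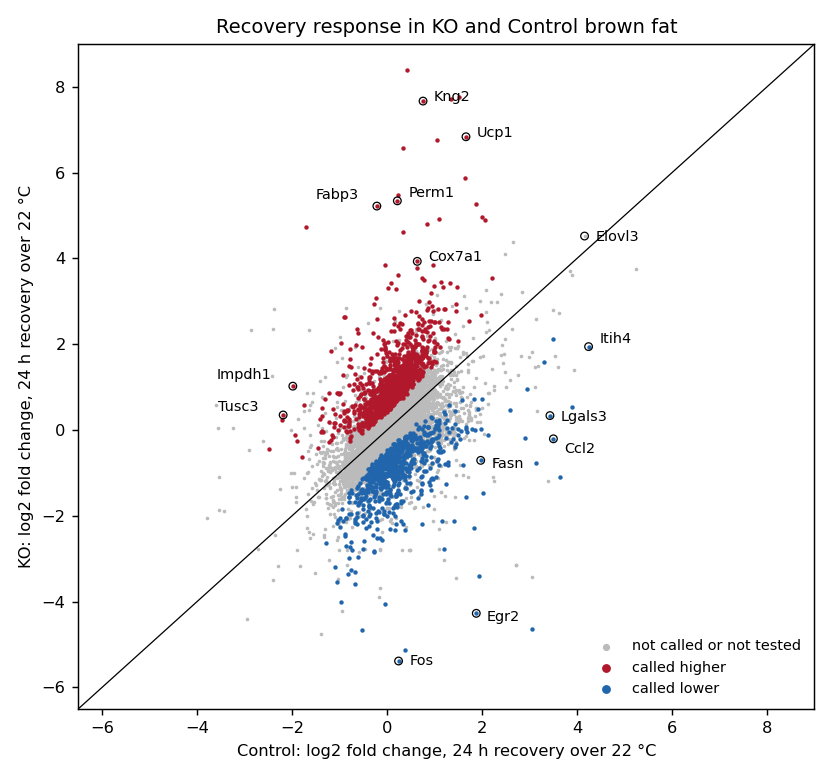
Each point is a gene, with the authors' log2 fold change of recovery over 22 °C in Control on the x axis and in KO on the y axis; the line marks equal changes, and red and blue mark the genes called higher (1204) and lower (755) where both fold changes are listed. Ucp1 lies far above the line with an upward change in Control as well (log2 1.66), and Fabp3 lies far above it with a small Control change (-0.21). Fos lies far below the line, Fasn and Lgals3 lie below it mostly through a change in Control, and Elovl3 lies near it with a large change in both.

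The higher end held many genes of heat production and fuel oxidation that were low in KO kept at 22 °C relative to Control. The largest difference of differences among the genes named by rule was that of the kininogen gene Kng2 (5.99), and Lgr6 (4.75) also ranked above Perm1. Both are described further below. Ucp1, the uncoupling protein, averaged 3884 RPKM in KO recovery and 32.8 RPKM in KO 22 °C, against 4966 RPKM in Control recovery and 1607 RPKM in Control 22 °C. Its recovery change was thus 36.4-fold larger in KO than in Control (interaction 5.19 ± 0.56 SE, Wald adjusted p = 1.29e-17), and KO 22 °C was the one low group. Fabp3, a fatty acid carrier of oxidative tissues, averaged 986 RPKM in KO recovery and 26.0 RPKM in KO 22 °C, against 470 RPKM in Control recovery and 567 RPKM in Control 22 °C. The Fabp3 interaction, 5.45 ± 0.51 (SE, Wald adjusted p = 8.56e-24), came with no Control change past the authors' threshold, and KO recovery stood above both Control groups. Perm1, a muscle and brown fat factor that works with PGC-1 and ERR proteins, averaged 10.6 RPKM in KO recovery, 0.259 RPKM in KO 22 °C, 12.6 RPKM in Control recovery and 11.2 RPKM in Control 22 °C. The Perm1 interaction was 5.14 ± 0.53 (SE, Wald adjusted p = 1.86e-19). Cox7a1, the heart, muscle and brown fat form of a cytochrome oxidase subunit, averaged 881 RPKM in KO recovery and 56.4 RPKM in KO 22 °C, against 1372 RPKM in Control recovery and 924 RPKM in Control 22 °C. The Cox7a1 interaction was 3.31 ± 0.27 (SE, Wald adjusted p = 2.44e-32). KO 22 °C was the lowest group for Ucp1, Perm1 and Cox7a1, and at 24 h Cox7a1 was still lower in KO in the authors' deposited table (the authors' adjusted p = 0.0275).

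Of the 27 genes of the thermogenic list, 26 passed the filter and 25 were tested, and 17 were called higher and 0 lower, 68.0% against 11.7% of all genes. The list's median difference of differences was 1.62, beside 0 over all genes by construction, with a median log2 fold change of recovery of 1.68 in KO and 0.07 in Control. Gyk, which phosphorylates glycerol for re-use in triglycerides, averaged 246 RPKM in KO recovery and 6.23 RPKM in KO 22 °C, against 151 RPKM in Control recovery and 41.1 RPKM in Control 22 °C. The carnitine palmitoyltransferase Cpt1b, the entry step of fatty acids into mitochondria, averaged 506 RPKM in KO recovery, 81.0 RPKM in KO 22 °C, 431 RPKM in Control recovery and 408 RPKM in Control 22 °C. The lipid droplet protein gene Cidea averaged 1290 RPKM in KO recovery, 433 RPKM in KO 22 °C, 1513 RPKM in Control recovery and 1365 RPKM in Control 22 °C. All 3 were called higher, with interactions of 3.40 ± 0.53, 2.48 ± 0.21 and 1.34 ± 0.23 (SE; Wald adjusted p = 8.99e-09, 2.16e-29 and 1.98e-07).

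The thermogenic list also held members whose interaction did not pass, and members whose Control mean was lower after recovery. Elovl3, a fatty acid elongase of brown fat that cold induces, averaged 713 RPKM in KO recovery and 30.2 RPKM in KO 22 °C, against 64.4 RPKM in Control recovery and 3.57 RPKM in Control 22 °C. Its interaction of 0.38 ± 0.73 (SE, Wald adjusted p = 0.789) was within its error, and at both times the KO mean stood about as far above Control. Dio2, the deiodinase that makes active thyroid hormone in this tissue, averaged 71.0 RPKM in KO recovery, 7.03 RPKM in KO 22 °C, 46.1 RPKM in Control recovery and 11.5 RPKM in Control 22 °C, and its interaction of 1.20 ± 0.84 (SE, Wald adjusted p = 0.349) did not pass. Adrb3, the β3-adrenergic receptor, averaged 43.9 RPKM in KO recovery, 56.0 RPKM in KO 22 °C, 16.4 RPKM in Control recovery and 20.9 RPKM in Control 22 °C, with an interaction of -0.07 ± 0.34 (SE, Wald adjusted p = 0.924). A p that misses the threshold does not show that both genotypes acted alike. Ppara, a nuclear receptor for fatty acids, averaged 62.8 RPKM in KO recovery and 33.5 RPKM in KO 22 °C, against 40.4 RPKM in Control recovery and 98.8 RPKM in Control 22 °C, so its called interaction of 2.10 ± 0.21 (SE, Wald adjusted p = 8.80e-21) joined a higher KO mean with a lower Control mean.

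**Figure D2:**
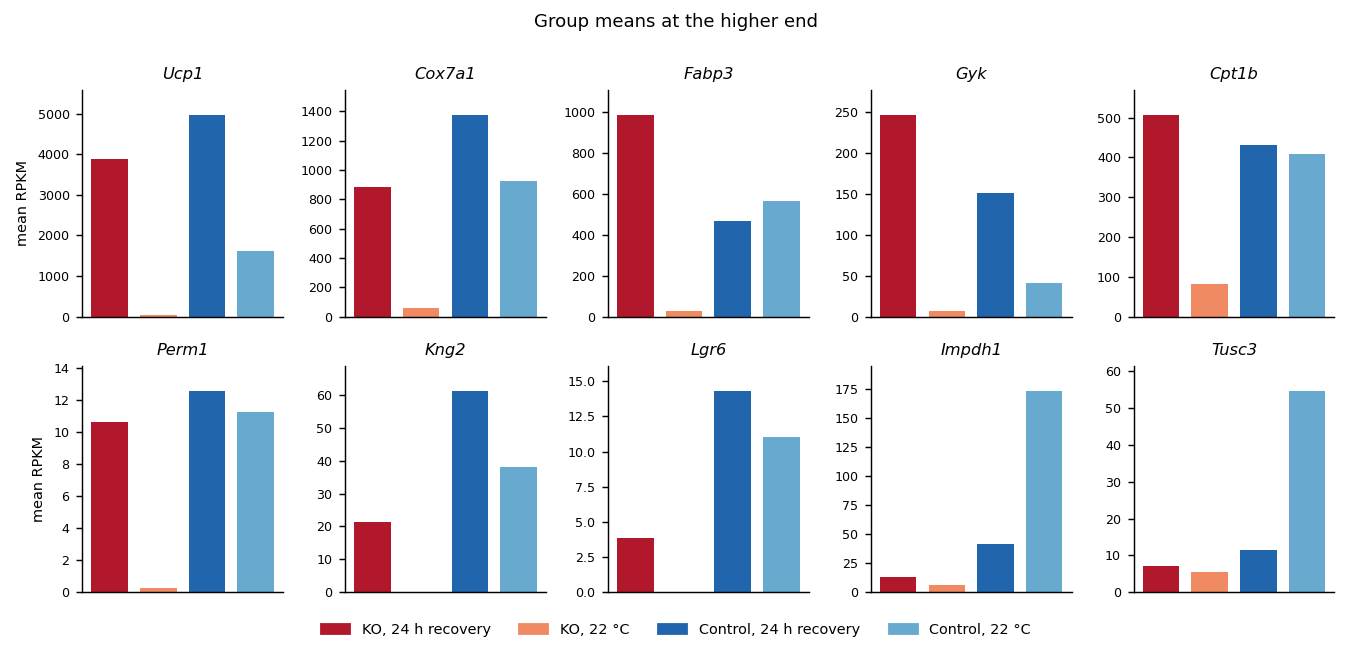
Bars are the authors' group means in RPKM for 10 genes of the higher end, each on its own linear axis from 0, in the order KO recovery, KO 22 °C, Control recovery and Control 22 °C; the tables give group means, so error bars are not drawn. Ucp1, Cox7a1, Fabp3, Gyk, Cpt1b, Perm1, Kng2 and Lgr6 are lowest in KO 22 °C, whereas Impdh1 and Tusc3 stand out through Control 22 °C.

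The recovery change of the respiratory chain was more upward in KO than in Control nearly throughout, from a lower level in KO at 22 °C. Complex I, which oxidises NADH, had 32 of 35 tested members called higher (91.4%, beside 11.7% of all genes) and 0 lower. All 37 members past the filter had a difference of differences above 0, between 0.47 and 1.44. Complexes II and III with cytochrome c had 12 of 13 called higher, complex IV 10 of 13 and ATP synthase 9 of 16, with 0 called lower in each, and the medians of these 3 lists were 1.01, 0.82 and 0.78. In KO at 22 °C the authors' deposited table called 37 of 37 complex I members, 14 of 14 members of complexes II and III, 13 of 15 of complex IV and 13 of 16 of ATP synthase lower than in Control (background lower 18%). At 24 h the counts of these lists lower in KO were 9, 2, 1 and 2 (background lower 7.96%), and 0, 1, 0 and 1 were higher (background higher 10.5%). Their median log2 fold changes of KO over Control at 24 h were -0.13, -0.10, -0.17 and -0.13. Cycs, which encodes cytochrome c, averaged 166 RPKM in KO recovery and 29.4 RPKM in KO 22 °C, against 134 RPKM in Control recovery and 89.6 RPKM in Control 22 °C. The Cycs interaction was 1.83 ± 0.21 (SE, Wald adjusted p = 4.64e-16). The complex I subunit gene Ndufb6 averaged 529 RPKM in KO recovery, 126 RPKM in KO 22 °C, 513 RPKM in Control recovery and 351 RPKM in Control 22 °C. The Ndufb6 interaction was 1.44 ± 0.19 (SE, Wald adjusted p = 1.26e-11). Sdhd, which anchors succinate dehydrogenase in the membrane, averaged 550 RPKM in KO recovery, 167 RPKM in KO 22 °C, 631 RPKM in Control recovery and 470 RPKM in Control 22 °C. The Sdhd interaction was 1.20 ± 0.20 (SE, Wald adjusted p = 1.91e-07). In each of these 3 genes KO 22 °C was the lowest group and KO recovery stood above Control 22 °C.

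The pathways that feed the chain lay on the same side. In pyruvate import and the TCA cycle, 17 of 27 tested members were called higher and 2 lower, with a median of 1.04, and mitochondrial fatty acid oxidation had 16 of 25 higher and 0 lower, with a median of 0.87. The share called lower in the first list, 7.41%, lay near the 7.36% of all genes, of which 11.7% were called higher. Sucla2, a subunit of succinyl-CoA synthetase, averaged 988 RPKM in KO recovery and 195 RPKM in KO 22 °C, against 841 RPKM in Control recovery and 801 RPKM in Control 22 °C. The Sucla2 interaction was 2.18 ± 0.20 (SE, Wald adjusted p = 1.70e-24). Acaa2, the mitochondrial thiolase, averaged 1050 RPKM in KO recovery and 134 RPKM in KO 22 °C, against 1247 RPKM in Control recovery and 1583 RPKM in Control 22 °C. The Acaa2 interaction was 3.22 ± 0.23 (SE, Wald adjusted p = 1.75e-40). Idh2, the mitochondrial NADP-linked isocitrate dehydrogenase, averaged 151 RPKM in KO recovery and 81.2 RPKM in KO 22 °C, against 146 RPKM in Control recovery and 316 RPKM in Control 22 °C. Sucla2 and Acaa2 followed the pattern of the respiratory chain, while the Idh2 means of KO and Control recovery lay close together, reached from opposite sides. Called lower were Pdk1, a kinase that inhibits pyruvate dehydrogenase (12.3 RPKM in KO recovery and 28.3 RPKM in KO 22 °C, against 30.6 RPKM in Control recovery and 23.3 RPKM in Control 22 °C), and the pyruvate carboxylase gene Pcx, with interactions of -1.71 ± 0.25 and -0.80 ± 0.18 (SE; Wald adjusted p = 1.11e-09 and 1.33e-04). Peroxisomal fatty acid oxidation, a side path for very long chains, had 7 of 19 called higher and 0 lower with a median of 0.43, and branched-chain amino acid catabolism 5 of 18 and 0 with a median of 0.37.

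Genes that build mitochondria followed, whereas those of the cytosolic ribosome did not. The mitochondrial ribosome had 45 of 74 tested members called higher and 0 lower (median 0.69), and mitochondrial protein import and chaperones had 19 of 28 and 0 (median 0.66). Over all genes 11.7% were called higher and 7.36% lower. The cytosolic ribosome had 0 of 69 called by the Wald test in either direction, with a median of 0.01, and at an unadjusted p under 0.05 2 members were higher and 3 lower. Mrps36, listed with the mitochondrial ribosome, averaged 25.5 RPKM in KO recovery, 3.09 RPKM in KO 22 °C, 31.3 RPKM in Control recovery and 20.5 RPKM in Control 22 °C. The Mrps36 interaction was 2.33 ± 0.31 (SE, Wald adjusted p = 4.48e-12). The matrix chaperonin gene Hspd1 averaged 473 RPKM in KO recovery, 138 RPKM in KO 22 °C, 295 RPKM in Control recovery and 214 RPKM in Control 22 °C, and KO recovery was the highest of the 4 groups. The Hspd1 interaction was 1.23 ± 0.16 (SE, Wald adjusted p = 3.88e-12). Among the factors that govern mitochondrial biogenesis, 11 of 17 were called higher and 1 lower, with a median of 0.77. Ppargc1a, which encodes the coactivator PGC-1α, averaged 7.07 RPKM in KO recovery and 2.64 RPKM in KO 22 °C, against 9.05 RPKM in Control recovery and 8.59 RPKM in Control 22 °C. The Ppargc1a interaction was 1.25 ± 0.47 (SE, Wald adjusted p = 0.0467). Esrrg, the estrogen-related receptor γ, averaged 4.16 RPKM in KO recovery, 0.993 RPKM in KO 22 °C, 2.89 RPKM in Control recovery and 5.95 RPKM in Control 22 °C. The Esrrg interaction was 3.0 ± 0.30 (SE, Wald adjusted p = 1.79e-21). Tfam, which packages and transcribes mitochondrial DNA, averaged 15.2 RPKM in KO recovery, 6.74 RPKM in KO 22 °C, 11.7 RPKM in Control recovery and 11.1 RPKM in Control 22 °C. The Tfam interaction was 1.02 ± 0.18 (SE, Wald adjusted p = 2.84e-07). The member called lower was Nrip1, a corepressor of oxidative genes, which averaged 8.32 RPKM in KO recovery and 18.1 RPKM in KO 22 °C, against 4.99 RPKM in Control recovery and 5.74 RPKM in Control 22 °C. The Nrip1 interaction was -1.0 ± 0.29 (SE, Wald adjusted p = 0.00560).

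**Figure D3:**
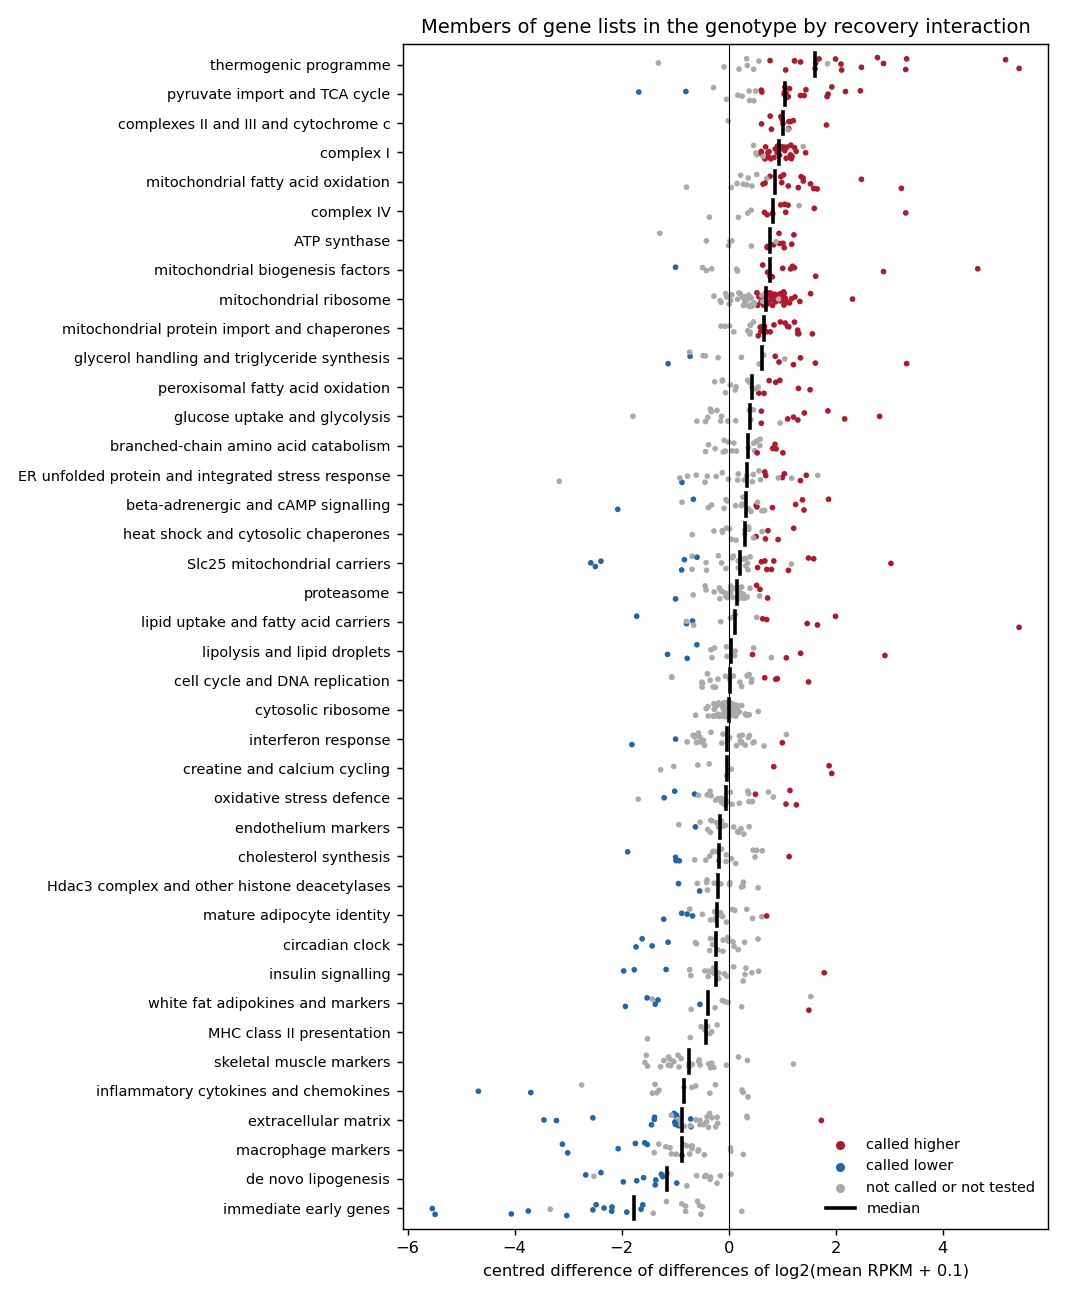
Each point is a member of the list named at the left, placed by its centred difference of differences (log2 of mean RPKM plus 0.1), with the list's median as a black bar and red or blue marking members called higher or lower. The thermogenic list (median 1.62) and the respiratory chain lie to the right, the cytosolic ribosome (0.01) at 0, and de novo lipogenesis (-1.15) and immediate early genes (-1.77) to the left.

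Handling of glucose, glycerol and fatty acids was divided. Glucose uptake and glycolysis had 9 of 24 tested members called higher and 0 lower (median 0.40), but its median recovery change was positive in both genotypes, 1.20 in KO and 0.80 in Control on the log2 scale. Ldhb, the lactate dehydrogenase subunit of oxidative tissues, averaged 335 RPKM in KO recovery and 28.0 RPKM in KO 22 °C, against 394 RPKM in Control recovery and 247 RPKM in Control 22 °C. The Ldhb interaction was 2.82 ± 0.21 (SE, Wald adjusted p = 3.60e-36). Its counterpart Ldha averaged 687 RPKM in KO recovery, 291 RPKM in KO 22 °C, 878 RPKM in Control recovery and 360 RPKM in Control 22 °C, with an interaction of -0.13 ± 0.23 (SE, Wald adjusted p = 0.763). Both lactate dehydrogenase genes were lowest in KO 22 °C, and both had higher means after recovery in either genotype. They differed in the size of the gap at 22 °C, which was wide for Ldhb (28.0 RPKM in KO against 247 RPKM in Control) and narrow for Ldha (291 RPKM against 360 RPKM). Glycerol handling and triglyceride synthesis had 6 of 15 called higher (40%, beside 11.7% of all genes) and 2 lower (13.3%, beside 7.36%), with a median of 0.61. Lipid uptake and fatty acid carriers had 6 of 16 called higher (37.5%) and 3 lower (18.75%), with a median of 0.11. Among the uptake genes Vldlr, a lipoprotein receptor, averaged 69.9 RPKM in KO recovery and 32.0 RPKM in KO 22 °C, against 26.2 RPKM in Control recovery and 35.2 RPKM in Control 22 °C. Slc27a1, a fatty acid transporter, averaged 85.8 RPKM in KO recovery and 215 RPKM in KO 22 °C, against 87.9 RPKM in Control recovery and 70.8 RPKM in Control 22 °C. These 2 uptake genes lay at opposite ends, at 1.48 ± 0.21 and -1.73 ± 0.21 (SE; Wald adjusted p = 1.07e-10 and 1.58e-13). In creatine and calcium cycling, routes of heat production that do not use UCP1, 3 of 7 tested members were called higher (42.9%, beside 11.7% of all genes) and 0 lower. The median of this list was -0.04, with 4 of 9 members past the filter above 0 and 5 below. Ckb, a creatine kinase, averaged 68.8 RPKM in KO recovery and 6.62 RPKM in KO 22 °C, against 130 RPKM in Control recovery and 49.3 RPKM in Control 22 °C. Alpl, a phosphatase that acts on phosphocreatine in this tissue, averaged 19.2 RPKM in KO recovery and 2.70 RPKM in KO 22 °C, against 6.53 RPKM in Control recovery and 3.77 RPKM in Control 22 °C. At 24 h, then, Ckb was still below Control in KO while Alpl stood above it (interactions 1.89 ± 0.39 and 1.95 ± 0.30 SE, Wald adjusted p = 2.71e-05 and 1.04e-08).

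Genes of β-adrenergic and cAMP signalling leaned towards the higher end, with 16 of 24 members past the filter above 0 and 8 below (median 0.32). Of 21 tested, 7 were called higher (33.3%, beside 11.7% of all genes) and 2 lower (9.52%, beside 7.36%). At a Wald adjusted p under 0.01, 4 were called higher and 1 lower. Adra1a, the α1A-adrenergic receptor, averaged 23.4 RPKM in KO recovery and 9.69 RPKM in KO 22 °C, against 23.4 RPKM in Control recovery and 24.6 RPKM in Control 22 °C. The Adra1a interaction was 1.25 ± 0.21 (SE, Wald adjusted p = 9.42e-08), and KO 22 °C was the low group. Adcy5, an adenylyl cyclase that makes cAMP, averaged 2.29 RPKM in KO recovery and 13.5 RPKM in KO 22 °C, against 1.57 RPKM in Control recovery and 2.30 RPKM in Control 22 °C. The Adcy5 interaction was -2.09 ± 0.45 (SE, Wald adjusted p = 5.97e-05), and KO 22 °C was the high group. Lipolysis and lipid droplets had 4 of 16 called higher (25%) and 3 lower (18.75%), beside the same shares of all genes. The median of this list was 0.04, and the droplet proteins of the Cide family lay on both sides. Cideb averaged 5.20 RPKM in KO recovery and 0.512 RPKM in KO 22 °C, against 4.01 RPKM in Control recovery and 3.70 RPKM in Control 22 °C. Cidec, typical of droplets in white fat, averaged 1322 RPKM in KO recovery and 1992 RPKM in KO 22 °C, against 580.5 RPKM in Control recovery and 541.5 RPKM in Control 22 °C. The Cideb interaction was 3.12 ± 0.48 and that of Cidec -0.77 ± 0.21 (SE, Wald adjusted p = 7.93e-09 and 0.00261).

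Some genes of the higher end remained below Control at 24 h. Kng2, a kininogen gene, averaged 21.3 RPKM in KO recovery and 0.0973 RPKM in KO 22 °C, against 61.3 RPKM in Control recovery and 38.0 RPKM in Control 22 °C. Lgr6, a receptor of the R-spondin family, averaged 3.87 RPKM in KO recovery and 0.00753 RPKM in KO 22 °C, against 14.3 RPKM in Control recovery and 11.1 RPKM in Control 22 °C. Gmpr, a GMP reductase of purine metabolism, averaged 34.2 RPKM in KO recovery and 1.08 RPKM in KO 22 °C, against 237 RPKM in Control recovery and 60.9 RPKM in Control 22 °C. All 3 had a KO recovery mean below both Control means, and the authors' deposited table gave Gmpr as 6.13-fold lower in KO at 24 h (the authors' adjusted p = 1.61e-07). Kng2 had an interaction of 6.92 ± 0.41, Lgr6 one of 7.965 ± 0.718 and Gmpr one of 2.97 ± 0.68 (SE, Wald adjusted p = 1.73e-58, 1.645e-25 and 2.21e-04). With a group near 0, however, the size of such a value depends on how the authors' fit treats low counts. Arhgdig was listed at 0 in KO 22 °C and at 2.92 RPKM in KO recovery, against 6.57 RPKM in Control recovery and 2.36 RPKM in Control 22 °C. The calcium-binding protein gene S100b averaged 14.0 RPKM in KO recovery and 0.987 RPKM in KO 22 °C, against 47.0 RPKM in Control recovery and 31.4 RPKM in Control 22 °C. S100b was also the one gene called among the nerve and Schwann cell markers, of which 1 of 5 tested was called higher and 0 lower.

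Others passed the Control level. Cyp2b10, a cytochrome P450, averaged 56.5 RPKM in KO recovery and 0.930 RPKM in KO 22 °C, against 15.9 RPKM in Control recovery and 5.45 RPKM in Control 22 °C. The Cyp2b10 interaction was 4.25 ± 0.72 (SE, Wald adjusted p = 1.50e-07). Hpdl, a dioxygenase-like mitochondrial protein gene, averaged 11.8 RPKM in KO recovery and 0.401 RPKM in KO 22 °C, against 4.73 RPKM in Control recovery and 2.73 RPKM in Control 22 °C. The Hpdl interaction was 3.97 ± 0.43 (SE, Wald adjusted p = 1.15e-17). Tfrc, the transferrin receptor that takes up iron, averaged 46.3 RPKM in KO recovery and 7.31 RPKM in KO 22 °C, against 25.5 RPKM in Control recovery and 50.1 RPKM in Control 22 °C. The Tfrc interaction was 3.55 ± 0.50 (SE, Wald adjusted p = 1.49e-10). Pnldc1 had the same form as Tfrc at lower levels, with 7.93 RPKM in KO recovery and 1.25 RPKM in KO 22 °C, against 4.42 RPKM in Control recovery and 8.47 RPKM in Control 22 °C. In Cyp2b10 and Hpdl KO recovery was the highest of the 4 groups, while in Tfrc and Pnldc1 the order of KO and Control reversed between 22 °C and 24 h.

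In some genes the higher value came mostly with a lower mean in Control after recovery, and Impdh1 and Aqp7 were also higher after recovery in KO past the authors' threshold. Tusc3, a subunit of the oligosaccharyltransferase, averaged 7.17 RPKM in KO recovery and 5.49 RPKM in KO 22 °C, against 11.4 RPKM in Control recovery and 54.7 RPKM in Control 22 °C. The Tusc3 interaction was 2.55 ± 0.43 (SE, Wald adjusted p = 2.03e-07). Impdh1, an enzyme of guanine nucleotide synthesis, averaged 12.9 RPKM in KO recovery and 6.18 RPKM in KO 22 °C, against 41.2 RPKM in Control recovery and 173 RPKM in Control 22 °C. The Impdh1 interaction was 3.02 ± 0.40 (SE, Wald adjusted p = 3.64e-12). Both genes were low in KO at either time and highest in Control 22 °C. Aqp7, the glycerol channel of adipocytes, averaged 50.6 RPKM in KO recovery, 39.2 RPKM in KO 22 °C, 39.6 RPKM in Control recovery and 82.4 RPKM in Control 22 °C. The Aqp7 interaction was 1.34 ± 0.20 (SE, Wald adjusted p = 1.90e-09).

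The lower end was led by immediate early genes, whose transcription follows a stimulus before any new protein is made. Fos averaged 0.637 RPKM in KO recovery and 26.1 RPKM in KO 22 °C, against 2.66 RPKM in Control recovery and 2.22 RPKM in Control 22 °C. The Fos interaction was -5.62 ± 1.38 (SE, Wald adjusted p = 6.49e-04). Egr2, a zinc finger factor, averaged 0.258 RPKM in KO recovery and 4.88 RPKM in KO 22 °C, against 1.33 RPKM in Control recovery and 0.353 RPKM in Control 22 °C. The Egr2 interaction was -6.14 ± 1.25 (SE, Wald adjusted p = 2.21e-05). Btg2, an antiproliferative factor, averaged 6.56 RPKM in KO recovery and 73.9 RPKM in KO 22 °C, against 6.19 RPKM in Control recovery and 13.2 RPKM in Control 22 °C. The Btg2 interaction was -2.47 ± 0.71 (SE, Wald adjusted p = 0.00458). In each, KO 22 °C stood above the other 3 groups. Errors of Fos and Egr2 were above 1 on the log2 scale, several times those of the mitochondrial genes, so their sizes are less certain. Of the 28 immediate early genes listed, 24 passed the filter and 22 were tested, and 13 were called lower and 0 higher, 59.1% against 7.36% of all genes. Their median difference of differences was -1.77, with a median recovery change of -2.19 in KO and -0.12 in Control. Members that were not called lower included Jun, with 7.23 RPKM in KO recovery, 40.0 RPKM in KO 22 °C, 5.15 RPKM in Control recovery and 16.5 RPKM in Control 22 °C (interaction -0.88 ± 0.62 SE, Wald adjusted p = 0.352), whose mean was lower after recovery in both genotypes. Nr4a1 had no test and averaged 2.50 RPKM in KO recovery and 51.4 RPKM in KO 22 °C, against 2.75 RPKM in Control recovery and 22.4 RPKM in Control 22 °C.

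Several other genes likewise had KO 22 °C as the high group. Irf4, a transcription factor of fasting and thermogenic responses in adipocytes, averaged 7.84 RPKM in KO recovery and 51.5 RPKM in KO 22 °C, against 12.1 RPKM in Control recovery and 5.57 RPKM in Control 22 °C. The Irf4 interaction was -3.96 ± 0.80 (SE, Wald adjusted p = 1.98e-05). Slc25a25, a mitochondrial carrier of ATP-Mg and phosphate, averaged 2.22 RPKM in KO recovery and 21.3 RPKM in KO 22 °C, against 1.93 RPKM in Control recovery and 3.24 RPKM in Control 22 °C. The Slc25a25 interaction was -2.63 ± 0.66 (SE, Wald adjusted p = 9.04e-04). Mfng, a glycosyltransferase that modifies Notch, averaged 9.07 RPKM in KO recovery and 63.1 RPKM in KO 22 °C, against 6.34 RPKM in Control recovery and 7.92 RPKM in Control 22 °C. The Mfng interaction was -2.54 ± 0.36 (SE, Wald adjusted p = 1.45e-10). The Slc25 mitochondrial carriers as a family lay at both ends. Of 34 tested, 10 were called higher (29.4%, beside 11.7% of all genes), among them the carnitine carrier Slc25a20, and 6 lower (17.6%, beside 7.36%).

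De novo lipogenesis, the building of fatty acids from citrate, reached the lower end in another form: after recovery 6 of its 21 members were higher and 8 lower in KO in the authors' deposited tables, against 18 higher and 0 lower in Control. All 21 members passed the filter, and 20 had a difference of differences below 0, with a median of -1.15. Of 20 tested, 10 were called lower (50%, beside 7.36% of all genes) and 0 higher. The median recovery change was 0.00 in KO and 1.01 in Control, and the median KO to Control log2 ratio was 0.07 at 24 h and 1.45 at 22 °C. Fasn, the fatty acid synthase, averaged 2023 RPKM in KO recovery and 3219 RPKM in KO 22 °C, against 2429 RPKM in Control recovery and 642 RPKM in Control 22 °C. The Fasn interaction was -2.67 ± 0.42 (SE, Wald adjusted p = 1.76e-08). Srebf1, which encodes SREBP1, averaged 70.7 RPKM in KO recovery and 165 RPKM in KO 22 °C, against 109 RPKM in Control recovery and 68.3 RPKM in Control 22 °C. The Srebf1 interaction was -1.98 ± 0.23 (SE, Wald adjusted p = 1.06e-15). Slc25a1, the carrier that exports citrate for this pathway, averaged 157 RPKM in KO recovery and 269 RPKM in KO 22 °C, against 278 RPKM in Control recovery and 96.0 RPKM in Control 22 °C. The Slc25a1 interaction was -2.40 ± 0.30 (SE, Wald adjusted p = 6.34e-13). Control 22 °C was the lowest group for all 3 genes, close to KO recovery for Srebf1. G6pdx, the first NADPH-producing step of the pentose phosphate pathway, averaged 120 RPKM in KO recovery, 59.3 RPKM in KO 22 °C, 85.3 RPKM in Control recovery and 38.2 RPKM in Control 22 °C (interaction -0.22 ± 0.24 SE, Wald adjusted p = 0.602, not called). Of the cholesterol synthesis genes 4 of 21 tested were called lower (19.0%, beside 7.36% of all genes) and 1 higher (4.76%, beside 11.7%), with a median of -0.19.

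**Figure D4:**
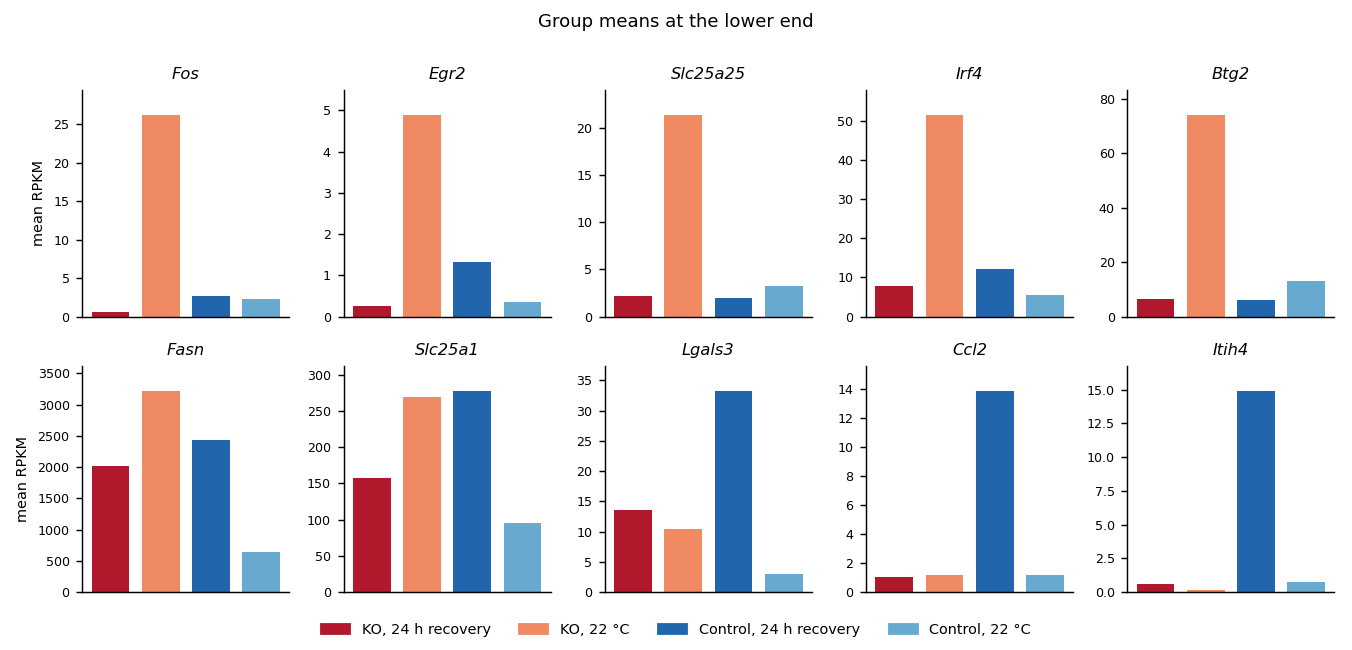
Bars are the authors' group means in RPKM for 10 genes of the lower end, each on its own linear axis from 0, in the order KO recovery, KO 22 °C, Control recovery and Control 22 °C, drawn without error bars because the tables give group means. Fos, Egr2, Slc25a25, Irf4 and Btg2 are high in KO 22 °C, whereas Lgals3, Ccl2 and Itih4 are high in Control recovery and Fasn and Slc25a1 are low in Control 22 °C.

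A further group of the lower end had a median recovery change near 0 in KO and upward in Control. Extracellular matrix genes had 15 of 37 tested members called lower (40.5%, beside 7.36% of all genes) and 1 higher (2.70%, beside 11.7%). Their median was -0.86, and their median recovery change was 0.01 in KO and 0.82 in Control. Col6a1, a collagen VI chain, averaged 18.5 RPKM in KO recovery and 19.0 RPKM in KO 22 °C, against 37.7 RPKM in Control recovery and 20.5 RPKM in Control 22 °C. The Col6a1 interaction was -0.97 ± 0.32 (SE, Wald adjusted p = 0.0179). Col4a1, a basement membrane collagen, averaged 97.0 RPKM in KO recovery and 91.9 RPKM in KO 22 °C, against 151 RPKM in Control recovery and 77.3 RPKM in Control 22 °C. The Col4a1 interaction was -0.95 ± 0.24 (SE, Wald adjusted p = 9.58e-04). Control recovery was thus the one high group for both collagens. Col12a1 was the member called higher and averaged 4.58 RPKM in KO recovery and 1.10 RPKM in KO 22 °C, against 5.24 RPKM in Control recovery and 4.71 RPKM in Control 22 °C.

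Macrophage markers lay on the same side as the matrix genes, and their part in the matrix values was not tested. Of 28 markers, 25 passed the filter, 7 were called lower (28%, beside 7.36% of all genes) and 0 higher, and the median was -0.87. The summed mean RPKM was 1183 in KO recovery, 623 in KO 22 °C, 1258 in Control recovery and 649 in Control 22 °C. The lysosomal protease gene Ctsd makes up most of these sums. Lgals3, a galectin of lipid-handling macrophages, averaged 13.5 RPKM in KO recovery and 10.5 RPKM in KO 22 °C, against 33.3 RPKM in Control recovery and 3.08 RPKM in Control 22 °C. The Lgals3 interaction was -3.08 ± 0.77 (SE, Wald adjusted p = 7.76e-04). The chemokine gene Ccl2 averaged 1.05 RPKM in KO recovery and 1.19 RPKM in KO 22 °C, against 13.9 RPKM in Control recovery and 1.18 RPKM in Control 22 °C. The Ccl2 interaction was -3.70 ± 1.41 (SE, Wald adjusted p = 0.0465), a call that is lost with the recovery tables (Wald adjusted p = 0.112). Inflammatory cytokines as a list had 2 of 14 tested members called lower (14.3%, beside 7.36% of all genes) and 0 higher. Skeletal muscle markers, of a tissue that borders the pad, had a median of -0.74 with 0 of 18 called by the Wald test and 0 at an unadjusted p under 0.05, and sums of 225 RPKM in KO recovery, 222 in KO 22 °C, 402 in Control recovery and 260 in Control 22 °C. Fibroblast and preadipocyte markers had 1 of 11 called lower and sums of 309 RPKM in KO recovery, 356 in KO 22 °C, 489 in Control recovery and 341 in Control 22 °C, and endothelial markers 1 of 14 called lower and sums of 242 RPKM in KO recovery, 268 in KO 22 °C, 285 in Control recovery and 288 in Control 22 °C. The shares called lower, 9.09% of fibroblast and 7.14% of endothelial markers, lay near the 7.36% of all genes. The part of these markers in the matrix values was not tested either. Markers of neutrophils, lymphocytes, red cells and smooth muscle had 0 members called by the Wald test and 0 at an unadjusted p under 0.05, of 4, 3, 8 and 9 tested. The gene of the secreted inhibitor heavy chain Itih4, at 0.625 RPKM in KO recovery and 0.156 RPKM in KO 22 °C, against 14.9 RPKM in Control recovery and 0.782 RPKM in Control 22 °C, had its highest mean in Control recovery.

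**Figure D5:**
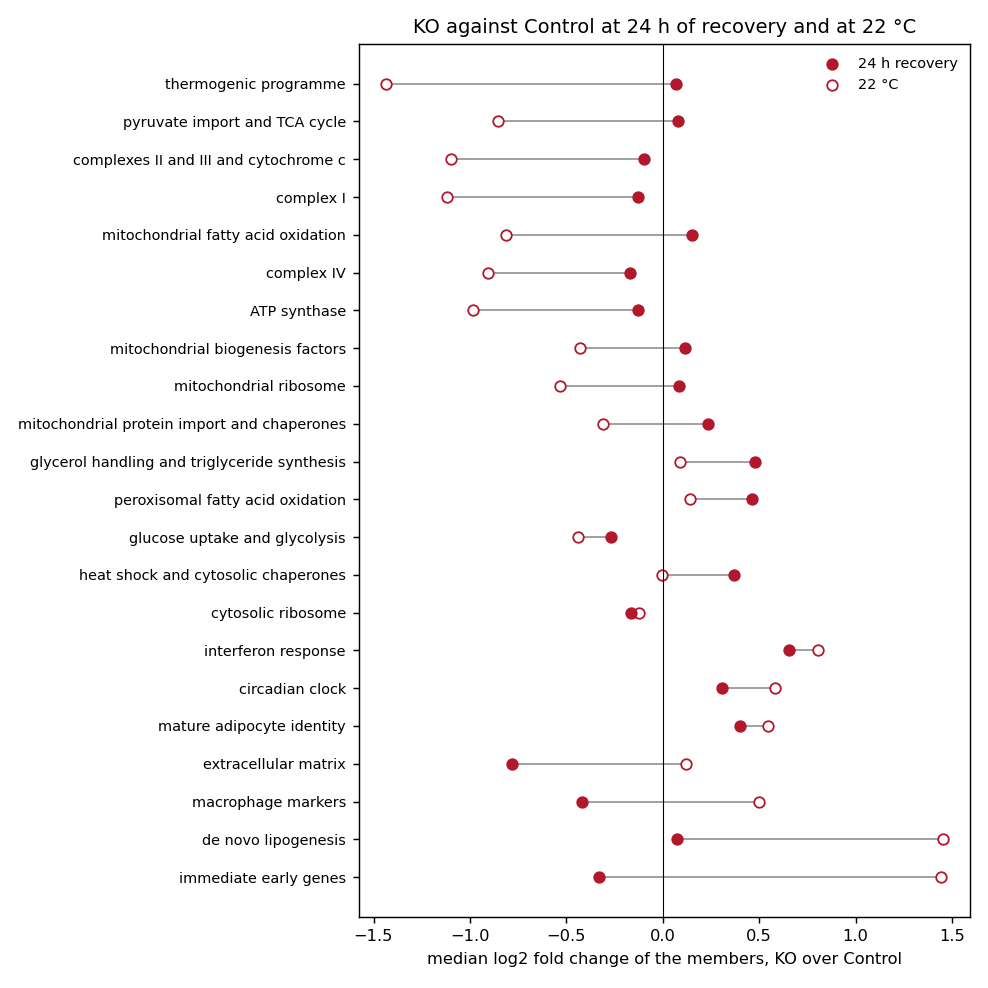
For each list the filled point is the median log2 fold change of KO over Control at 24 h of recovery and the open point the same at 22 °C, from the authors' deposited tables. The complex I median was -0.13 at 24 h and -1.12 at 22 °C, de novo lipogenesis had 0.07 and 1.45, and the interferon response stayed high in KO at both times, at 0.66 and 0.80.

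Fat cell, hormone and clock lists also had members at the lower end. White fat adipokines and markers had 5 of 14 called lower and 1 higher, mature adipocyte identity 4 of 19 and 1, insulin signalling 3 of 21 and 1, and the circadian clock 4 of 19 and 0, beside 7.36% of all genes called lower and 11.7% higher. Members with a difference of differences below 0 numbered 11 of 14, 15 of 21, 15 of 22 and 15 of 20 in these lists. Cfd, the adipokine adipsin, averaged 1206 RPKM in KO recovery and 4947 RPKM in KO 22 °C, against 1101 RPKM in Control recovery and 1846 RPKM in Control 22 °C. The Cfd interaction was -1.38 ± 0.34 (SE, Wald adjusted p = 8.44e-04). Cfb, a complement factor, averaged 14.4 RPKM in KO recovery and 47.7 RPKM in KO 22 °C, against 12.4 RPKM in Control recovery and 7.03 RPKM in Control 22 °C. The Cfb interaction was -2.61 ± 0.46 (SE, Wald adjusted p = 4.97e-07). Igf1 averaged 3.34 RPKM in KO recovery and 11.3 RPKM in KO 22 °C, against 4.37 RPKM in Control recovery and 3.93 RPKM in Control 22 °C. The Igf1 interaction was -1.98 ± 0.34 (SE, Wald adjusted p = 1.97e-07). All 3 had KO 22 °C as their one high group. Arntl, the clock factor BMAL1, averaged 3.87 RPKM in KO recovery and 1.94 RPKM in KO 22 °C, against 2.80 RPKM in Control recovery and 0.374 RPKM in Control 22 °C (interaction -1.96 ± 0.41 SE, Wald adjusted p = 3.33e-05), higher after recovery in both genotypes but less so in KO. Rora, an activator of Arntl, averaged 5.00 RPKM in KO recovery and 11.7 RPKM in KO 22 °C, against 2.89 RPKM in Control recovery and 3.24 RPKM in Control 22 °C. The Rora interaction was -1.14 ± 0.21 (SE, Wald adjusted p = 3.50e-06). The clock output gene Dbp and the clock repressor gene Per2 were near 0 in the difference of differences, at 0.10 and -0.10.

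Stress pathways gave smaller shifts of the median towards the higher end, with members on both sides. Heat shock and cytosolic chaperones had 5 of 16 called higher (31.25%, beside 11.7% of all genes) and 0 lower, with a median of 0.30. The unfolded protein and integrated stress response had 6 of 24 called higher (25%) and 1 lower (4.17%, beside 7.36%). Its median was 0.34, and its members past the filter ran from -3.17 to 1.67, with 17 above 0 and 10 below. Hspa5, the main chaperone of the endoplasmic reticulum, averaged 192 RPKM in KO recovery, 83.4 RPKM in KO 22 °C, 140 RPKM in Control recovery and 130 RPKM in Control 22 °C. The Hspa5 interaction was 1.0 ± 0.28 (SE, Wald adjusted p = 0.00312). Xbp1, the transcription factor of that response, lay on the other side with 24.6 RPKM in KO recovery and 65.1 RPKM in KO 22 °C, against 22.6 RPKM in Control recovery and 34.6 RPKM in Control 22 °C. The Xbp1 interaction was -0.88 ± 0.27 (SE, Wald adjusted p = 0.00862). The oxidative stress list had 4 of 26 called higher (15.4%, beside 11.7% of all genes) and 3 lower (11.5%, beside 7.36%), with the mitochondrial superoxide dismutase Sod2 at 1.07 ± 0.18 and the glutathione peroxidase Gpx1 at -1.20 ± 0.21 (SE; Wald adjusted p = 1.02e-07 and 6.81e-07).

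Promoters of genes from both ends are shown because cAMP signalling and estrogen-related receptors are known regulators of thermogenic and immediate early genes. The 300 bases run from 250 before to 50 after the annotated start of transcription on the strand of the gene, 5′ to 3′, from RefSeq on GRCm38.p6, a build other than that of the counts, and 130 of 167 genes singled out by rule had an entry. Capitals mark the full cAMP response element TGACGTCA, a palindrome, in Cycs at chr6:50566520-50566819 (minus strand), Btg2 at chr1:134079106-134079405 (minus) and Slc25a25 at chr2:32424017-32424316 (minus), and the estrogen-related receptor site TCAAGGTCA, read on the opposite strand, in Sdhd at chr9:50603800-50604099 (minus).
Cycs: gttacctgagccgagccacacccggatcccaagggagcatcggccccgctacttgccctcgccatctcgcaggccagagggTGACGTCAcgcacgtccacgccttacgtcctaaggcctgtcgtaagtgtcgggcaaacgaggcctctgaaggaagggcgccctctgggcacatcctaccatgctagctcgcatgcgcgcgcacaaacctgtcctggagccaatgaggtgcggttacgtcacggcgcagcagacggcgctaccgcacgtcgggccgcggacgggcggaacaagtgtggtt
Sdhd: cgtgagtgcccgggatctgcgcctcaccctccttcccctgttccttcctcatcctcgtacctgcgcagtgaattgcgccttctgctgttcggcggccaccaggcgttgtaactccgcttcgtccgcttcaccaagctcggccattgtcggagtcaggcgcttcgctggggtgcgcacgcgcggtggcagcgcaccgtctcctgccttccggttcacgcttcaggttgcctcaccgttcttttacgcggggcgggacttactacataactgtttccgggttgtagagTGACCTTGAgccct
Btg2: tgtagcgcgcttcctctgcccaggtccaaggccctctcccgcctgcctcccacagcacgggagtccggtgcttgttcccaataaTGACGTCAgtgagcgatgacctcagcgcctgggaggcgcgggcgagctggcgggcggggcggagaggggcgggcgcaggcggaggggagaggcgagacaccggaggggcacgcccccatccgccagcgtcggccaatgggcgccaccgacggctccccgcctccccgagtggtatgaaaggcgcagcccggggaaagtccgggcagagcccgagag
Slc25a25: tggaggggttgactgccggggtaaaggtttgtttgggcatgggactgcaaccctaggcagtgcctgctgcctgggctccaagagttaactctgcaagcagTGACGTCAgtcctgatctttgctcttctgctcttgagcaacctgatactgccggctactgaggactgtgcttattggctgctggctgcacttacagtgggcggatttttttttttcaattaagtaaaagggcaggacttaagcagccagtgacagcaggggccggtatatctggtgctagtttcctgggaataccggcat

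The same cAMP response element thus stood in Cycs, whose mean was lowest in KO 22 °C, and in Btg2 and Slc25a25, whose means were highest there. Over the genes with a single RefSeq promoter entry, TGACGTCA on either strand was present in 3.85% of 754 genes called higher, 1.86% of 431 called lower and 3.51% of all 6761. TCAAGGTCA was present in 0.398%, 0.232% and 0.237% of the same sets, and the E box CACGTG, which clock and lipogenic factors can bind, in 9.42%, 10.2% and 10.7%. A match describes letters in this window and is not a measured site.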

How the data were processed

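Groups were read from the title of each library. The submitters' processing notes name STAR, featureCounts, edgeR and the build mm9, without versions. RNA was depleted of ribosomal RNA before library preparation, per the labels' protocols. The authors deposited tables that compare pairs of groups. Per the file headers these hold a log2 fold change, a p-value with its FDR, and a mean per group, computed by the authors with edgeR per their processing notes. The deposited means carry no unit and were read as RPKM, because multiplying them by gene length gave the deposited log2 CPM up to a nearly fixed offset (median -0.51, quartiles -0.57 and -0.46).

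The interaction was the deposited log2 fold change of KO over Control at 24 h minus that at 22 °C, comparisons that share no library, centred on its median (-0.012 before centring, and 0.083 for the difference of log2 means). Each standard error was the size of the fold change over the normal score of its deposited p-value, for p up to 0.9. A two-sided Wald test with Benjamini-Hochberg adjustment over 10260 genes followed. The recovery tables gave the same errors to within a median ratio of 1.00 (quartiles 0.989 and 1.01) over 9152 genes. They hold the same libraries and the same contrast (largest gap 0.045 on the log2 scale), so this closeness cannot check the rebuilt errors. On simulated data with 9671 genes tested, 67 of 95 genes with an interaction of 1 and 96 of 97 with one of 2 on the log2 scale were called, with 13 false calls among 9479 others. The simulated spread was taken from the rebuilt errors and treated as known, so these counts cannot check those errors on the real data. Python 3.11.15, pandas 2.3.3, numpy 2.4.6 and SciPy 1.17.1 were used. A count model with an interaction term would have needed counts per library, which the tables do not hold. Depth of 5349638 to 11977140 reads per library makes means near 0 imprecise.

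The members and the gene lists were chosen with earlier results of these data known. Genes were named by rule: Hdac3 and Ucp1, up to 12 called genes per end with the largest difference of differences at a mean of at least 1 RPKM, up to 12 more at a mean of at least 10 RPKM, and up to 4 members of each list with 3 or more called. Predicted loci, small RNAs and pseudogenes were passed over, and some genes the rule names are given only within counts or are not reported here. Elovl3, Dio2, Adrb3, Ppara, Ldha, Ppargc1a, Nrip1, Pdk1, Pcx, Jun, Nr4a1, G6pdx, Col6a1, Ctsd, Dbp and Per2, with the genes of the closing section that had no main test, were chosen after their values were seen. A gene had to be listed at both times, so genes below the authors' listing level at one time were not described. How reads shared by gene copies, overlapping genes or both strands were counted is not stated in the labels or headers. The groups at 7 d were left out, and no column of per-sample values was left unused.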

Additional observations from a re-analysis of the deposited data

Results flagged for a closer look

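The recovery change differed between KO and Control in a test of that difference itself for 1204 genes above and 755 genes below the Control change (Wald test, Benjamini-Hochberg adjusted p under 0.05). Among the genes named by rule, 17 reported here had in addition changed in opposite directions in KO and in Control at the authors' edgeR adjusted p in the deposited recovery tables.

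Of these, 11 were higher after recovery in KO and lower in Control. The interactions, on the log2 scale, were 3.0 for Esrrg, 1.92 for Idh2, 3.05 for Slc25a42, a carrier of coenzyme A into mitochondria, and 1.37 for Akap1, an anchor of protein kinase A at mitochondria. They were 1.34 for Aqp7, 1.86 for Rgs2, a brake on G protein signalling, 1.48 for Vldlr, 3.55 for Tfrc, 3.54 for Pnldc1, 3.02 for Impdh1 and 0.766 for the zinc finger gene Zfp322a. Slc25a42 averaged 17.9 RPKM in KO recovery and 4.87 RPKM in KO 22 °C, against 16.3 RPKM in Control recovery and 39.0 RPKM in Control 22 °C, so the recovery means lay close together. Akap1 averaged 70.5 RPKM in KO recovery and 40.9 RPKM in KO 22 °C, against 66.0 RPKM in Control recovery and 106 RPKM in Control 22 °C.

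The other 6 were lower after recovery in KO and higher in Control. They were Fasn at -2.67, Slc25a1 at -2.40, Srebf1 at -1.98, the elongase gene Elovl5 at -1.72, the dicarboxylate carrier gene Slc25a10 at -2.50 and Cfb at -2.61. With the exception of Cfb, these genes take part in the synthesis of lipids or are transporters that serve it. Slc25a10 averaged 31.2 RPKM in KO recovery and 73.3 RPKM in KO 22 °C, against 11.3 RPKM in Control recovery and 4.92 RPKM in Control 22 °C, and KO stayed above Control at both times.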

How the results depend on the processing

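No paired analysis was possible because the tables hold no value per library, and for the same reason leaving out replicates and count models with other normalizations were not run. No tested direction reversed under the alternatives run, but the median of the creatine and calcium cycling list was 0.39 at a mean of at least 5 RPKM, against -0.04. With an adjusted p under 0.01 the Wald test called 1246 genes, 410 of them lower. A pseudocount of 1 left 416 genes at -1 or less, and a mean of at least 5 RPKM left 392 at 1 or more and 398 at -1 or less, as fewer weak genes could pass. At the authors' adjusted p under 0.01, 42 called genes changed in opposite directions in KO and Control. Among genes called higher by 1 or more, 2.44% of promoters held TGACGTCA. The recovery tables, which hold the same libraries and contrast, called 1917 genes, 1802 of them shared with the 1959. Extracellular matrix genes called lower numbered 8 with p up to 0.5 and 6 at an adjusted p under 0.01, against 15; macrophage markers called lower numbered 4 at a mean of at least 5 RPKM and 2 at 0.01, against 7; biogenesis factors called higher numbered 6 with p up to 0.5, against 11. Repeats for single named genes that still had a test kept the call in 1426 cases and lost it in 33. Repeats that left a named gene without a test are in neither number. With p up to 0.5, for example, 138 of 167 named genes had a test and kept the call, and the others could not be judged. Errors taken from the recovery tables where none could be had, an alternative chosen after seeing the data, gave 2005 calls. Depth limits genes with a mean near 0 in KO 22 °C, such as Kng2 and Lgr6, whose interaction size is uncertain.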

Other observations

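Gene families defined by the letters before the first digit of their symbols, with 10 or more members past the filter, gave 133 families that used no hand-made list. The highest medians of the difference of differences were those of Ndufb (0.98), Timm (0.86), Ndufa (0.86), Cox (0.72), Mrpl (0.71) and Mrps (0.62), all of mitochondria, followed by the heat shock family Hspa (0.49). The lowest medians were those of the collagens Col (-0.95), the chemokines Ccl (-0.80), the interleukins and their receptors Il (-0.67), the caspases Casp (-0.66), the interferon regulatory factors Irf (-0.60), the protocadherins Pcdhga (-0.58), whose genes overlap and share exons, and the zinc finger factors Klf (-0.55). By the Wald test 1 of 10 Ccl members tested, 6 of 20 Il, 3 of 9 Casp, 2 of 9 Irf, 0 of 12 Pcdhga and 2 of 9 Klf were lower and 0 of each higher, while Col had 10 of 21 lower and 3 higher. Over all genes 7.36% were called lower and 11.7% higher.

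Genes with a KO to Control ratio close to 1 at 24 h or at 22 °C had no error in the main test, and 90 genes were called with errors from the recovery tables, an alternative chosen after seeing the data. Several would have ranked near the ends. Chac1, a glutathione-degrading enzyme of the stress response, averaged 1.78 RPKM in KO recovery and 11.9 RPKM in KO 22 °C, against 2.03 RPKM in Control recovery and 1.51 RPKM in Control 22 °C. Aacs, which activates acetoacetate for lipid synthesis, averaged 83.0 RPKM in KO recovery and 282 RPKM in KO 22 °C, against 91.8 RPKM in Control recovery and 57.5 RPKM in Control 22 °C. Kcnk3, a potassium channel of brown adipocytes, averaged 46.5 RPKM in KO recovery and 10.6 RPKM in KO 22 °C, against 50.7 RPKM in Control recovery and 44.4 RPKM in Control 22 °C. Ndn, an imprinted gene known to restrain brown adipocyte formation, averaged 16.6 RPKM in KO recovery and 5.84 RPKM in KO 22 °C, against 18.3 RPKM in Control recovery and 29.5 RPKM in Control 22 °C.

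Proteasome genes showed little interaction, with 3 of 36 tested called higher (8.33%, beside 11.7% of all genes) and 1 lower (2.78%, beside 7.36%). The authors' deposited tables nevertheless called 27 of 37 members higher in KO at 24 h and 20 at 22 °C, beside 10.5% and 16.3% of all listed genes. Interferon response genes likewise had 1 of 30 called higher (3.33%) and 2 lower (6.67%), neither above the share of all genes. Of 31 members, 13 were higher in KO at 24 h and 15 at 22 °C in the authors' deposited tables, beside the same 10.5% and 16.3% of all listed genes.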
